A study of Homo sapiens with 2 samples.

Results

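The genes that encode the initiation and elongation factors of cytosolic translation were examined in C4-2B cells, a human castration-resistant prostate cancer (CRPC) cell line, by RNA sequencing. Members were all protein-coding genes whose symbol begins with EIF and a digit or with EEF1 or EEF2, except the eIF2 kinases (EIF2AK1 to EIF2AK4), which gave 68 genes of 60671 in the gene table. Of these, 64 had at least 10 counts over both libraries and were compared, among 23446 genes that passed the same minimum. The cells were treated overnight with vehicle or with 1 µM (R)-9b (dz67), an inhibitor of the tyrosine kinase ACK1, and 1 library was sequenced from each condition. Both libraries came from the same cell line, and the labels give no genetic change in either. The RNA sequencing methods of the study state no dose, and the dose is the one given in the labels. One label calls the cells breast cancer, but the prostate genes KLK3 (146597 counts in vehicle and 297728 in (R)-9b) and KLK2 (19192 and 44253 counts) were abundant, whereas ESR1 had 2 counts in each library and GATA3 had 38 and 30.

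Translation starts when eIF2 delivers the initiator tRNA to the small ribosomal subunit, together with eIF1, eIF1A, eIF3 and eIF5. eIF4F, made of the cap-binding protein eIF4E, the scaffold eIF4G and the helicase eIF4A, brings this complex to the capped mRNA. The exchange factor eIF2B reloads eIF2 with GTP, and phosphorylation of eIF2 blocks that step. During elongation, eEF1A delivers aminoacyl-tRNAs and eEF2 moves the ribosome along the mRNA. Many mRNAs of the translation machinery begin with a C followed by a run of pyrimidines, the 5′ terminal oligopyrimidine (TOP) motif, through which the mTOR pathway controls their translation.

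The libraries held 65207444 counts in vehicle and 57653965 in (R)-9b, and mitochondrially encoded genes took 1.49% and 9.54% of them. Ratios are (R)-9b over vehicle on the log2 scale, after scaling by the trimmed mean of M values (TMM). Each ratio has an exact 95% interval that covers counting error only. It is too narrow if both mates of each read pair were counted, as described under the processing. With 1 library per condition there was no replicate spread, so the conditions were not tested and no p-value was computed. Below, a gene is called higher or lower where its whole interval lies on that side of 0, and it is said to have risen or fallen where it was also past 1.5-fold. The values are shares of a library, so less RNA of a gene per cell and more RNA of other genes cannot be told apart.

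The first bases of selected members are shown because the members found to begin with a pyrimidine tract were all lower in (R)-9b, as described further on. Each line gives 10 bases before and 20 bases from the transcript start annotated by RefSeq (GRCh38.p14), on the strand of the gene, and capitals mark a tract of at least 5 pyrimidines that opens with C at that start. The first 6 genes have such a tract and the last 4 do not.
EEF1A1: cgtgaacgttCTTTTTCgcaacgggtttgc
EEF2: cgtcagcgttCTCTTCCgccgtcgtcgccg
EIF2A: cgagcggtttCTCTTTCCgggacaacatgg
EIF3F: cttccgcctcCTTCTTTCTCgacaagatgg
EIF4A2: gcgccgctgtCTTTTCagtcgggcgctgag
EIF4B: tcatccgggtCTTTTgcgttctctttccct
EIF1: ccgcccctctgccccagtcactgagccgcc
EIF5: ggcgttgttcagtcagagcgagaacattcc
EIF2B5: cagcttccttgcggaagtggtgaccgtgag
EIF5B: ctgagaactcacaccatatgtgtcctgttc
The windows with a tract lie at chr6:73521013-73521042 on the minus strand for EEF1A1, chr19:3985444-3985473 on the minus strand for EEF2, and, on the plus strand, chr3:150546777-150546806 for EIF2A, chr11:7987327-7987356 for EIF3F, chr3:186783567-186783596 for EIF4A2 and chr12:53006446-53006475 for EIF4B. Those without one lie on the plus strand at chr17:41688875-41688904 for EIF1, chr14:103334227-103334256 for EIF5, chr3:184135348-184135377 for EIF2B5 and chr2:99337379-99337408 for EIF5B.

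More translation factor genes were lower than higher in (R)-9b. Of the 64 genes, 17 were higher, 38 were lower and 9 were neither. Over all genes tested, 29.8% were higher and 31.1% were lower, and over protein-coding genes with at least 1000 counts these shares were 38.4% and 44.3%. The members' median was -0.18, beside -0.005 over all genes and -0.03 over protein-coding genes with at least 1000 counts. Past 1.5-fold, 2 members rose and 8 fell, beside backgrounds of 14.9% higher and 13.4% lower over all genes and 8.65% and 9.95% over protein-coding genes with at least 1000 counts. The count of members that fell, 12.5% of those tested, was thus near the background. That count stratum was added after the values were seen, and 59 members belong to it, with 15 higher, 35 lower and a median of -0.17. If a coefficient of variation of 0.1 was added in each library to stand for spread that was not measured, 5 members were higher and 15 lower.

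**Figure D1:**
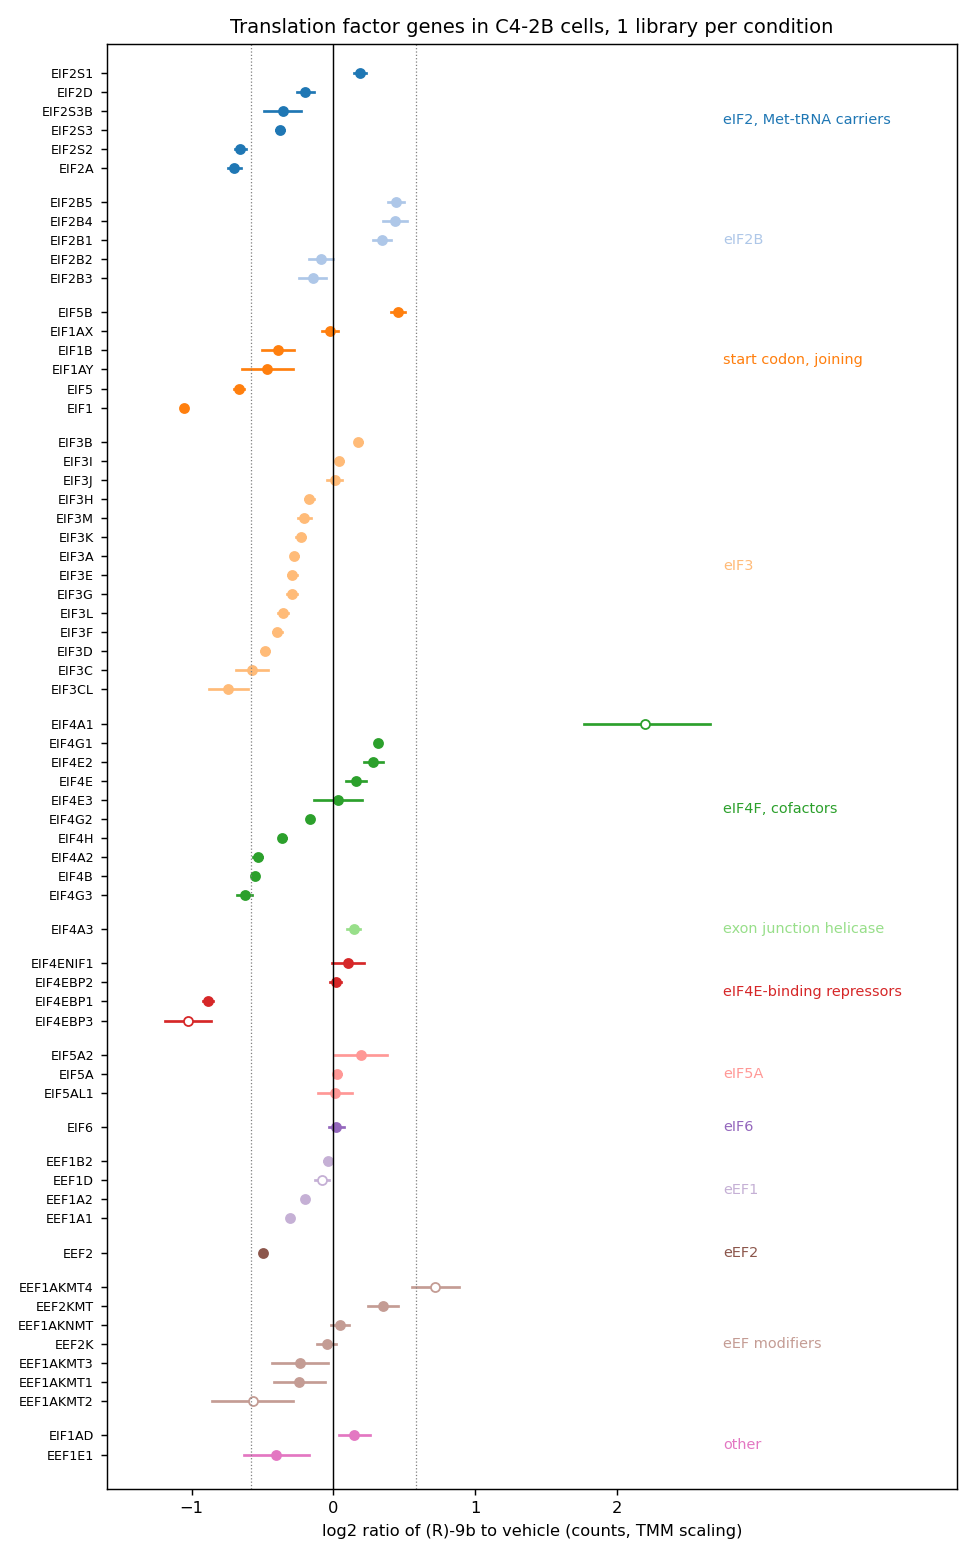
Log2 ratio of (R)-9b to vehicle for the 64 members tested, grouped by complex, with bars for the 95% counting interval and dotted lines at 1.5-fold; open circles mark 5 genes with fewer gene counts than estimated transcript counts. Most of eIF2, eIF3 and the elongation factors sit left of 0, and 3 of the 5 eIF2B genes sit right of it.

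The most abundant members are the elongation factors themselves. EEF2, which encodes the translocase, had 922197 counts in vehicle and 554129 in (R)-9b, a log2 ratio of -0.50 (-0.50 to -0.49). Its level per length was 3439 CPM (counts scaled to the library size) per kilobase of exon in vehicle and 2437 in (R)-9b, and among protein-coding genes it ranked 1st by counts in vehicle and 4th in (R)-9b. EEF1A1, the main eEF1A gene, had 610642 and 417982 counts, a log2 ratio of -0.31 (-0.31 to -0.30), and went from rank 2 to rank 6. EEF2 and EEF1A1 were both lower, without passing 1.5-fold. Mitochondrially encoded genes were not left out of the ranking, and their larger share of the (R)-9b library enters these ranks. EEF1A2, the paralog best known from muscle and neurons, was also abundant here, with 149802 and 110547 counts and a log2 ratio of -0.20 (-0.21 to -0.19). EEF1A1 made up 80.3% of the counts of the pair in vehicle (80.2 to 80.4%) and 79.1% in (R)-9b (79.0 to 79.2%), so the balance moved little. From estimated transcript counts the share was 88.7% and 88.0%. A further 114826 and 78953 gene counts lay in 39 pseudogenes of EEF1A1, so the share itself is less certain than its interval. EEF1B2, a subunit of the exchange factor that recharges eEF1A, had 21391 and 17654 counts and a log2 ratio of -0.04 (-0.07 to -0.01).

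All members together took 3.86% of the vehicle library and 2.94% of the (R)-9b library, and their summed log2 ratio was -0.33 after TMM scaling. Without EEF1A1 and EEF2 the shares were 1.51% and 1.254%, and the log2 ratio was -0.20. The larger mitochondrial share of the (R)-9b library enters these percentages. With TMM computed without the mitochondrially encoded genes, the summed log2 ratio was again -0.33.

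In the initiation step that selects the start codon, EIF1 stood out. It encodes the factor that keeps the scanning ribosome from stopping at wrong codons. EIF1 had 64752 counts in vehicle and 26402 in (R)-9b, a log2 ratio of -1.06 (-1.08 to -1.04), and the transcript table gave -1.05. This was the lowest point value among the members, with an interval inside that of EIF4EBP3. Its less abundant paralog EIF1B had 1592 and 1029 counts, with a log2 ratio of -0.39 (-0.51 to -0.28). EIF5, the GTPase activator of eIF2 at the start codon, fell from 18362 to 9823 counts, with a log2 ratio of -0.66 (-0.70 to -0.63). In contrast, EIF5B, the GTPase that joins the large subunit, had 6539 and 7600 counts and was higher, with a log2 ratio of 0.45 (0.41 to 0.50). EIF1AX, which encodes eIF1A, had 5326 and 4438 counts, and its interval spanned 0 (-0.08 to 0.03). Of the 6 genes of this group, 1 was higher and 4 were lower, and the median was -0.43.

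The genes of eIF2 and of the other carriers of initiator tRNA were mostly lower, with 5 of 6 lower and a median of -0.37. EIF2S2, the β subunit, fell from 17148 to 9227 counts, with a log2 ratio of -0.66 (-0.69 to -0.62). EIF2S3, the γ subunit that binds GTP and the tRNA, had 26132 and 17036 counts and a log2 ratio of -0.38 (-0.41 to -0.35). EIF2S1, the α subunit that the eIF2 kinases phosphorylate, had 9955 and 9610 counts and was higher at 0.19 (0.15 to 0.23). The 3 subunits of this trimer thus did not move together. EIF2A, a separate factor that can bring initiator tRNA without eIF2, fell from 10993 to 5741 counts, with a log2 ratio of -0.70 (-0.75 to -0.65). EIF2S3B, a copy of EIF2S3 on another chromosome, had 1170 and 774 counts, and reads may be split between these near-identical genes.

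Of the 5 eIF2B genes, 3 were higher and 2 were lower, with a median of 0.35. EIF2B5, the catalytic ε subunit, had 4966 counts in vehicle and 5717 in (R)-9b, a log2 ratio of 0.44 (0.39 to 0.50). EIF2B4 (δ) had 2254 and 2581 counts, a log2 ratio of 0.43 (0.35 to 0.52), and EIF2B1 (α) had 3829 and 4125 counts, a log2 ratio of 0.35 (0.28 to 0.41). The other two subunits were lower, EIF2B2 at -0.09 (-0.17 to -0.01) and EIF2B3 at -0.15 (-0.24 to -0.05). No eIF2B gene passed 1.5-fold.

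Regulators of eIF2 were taken from a list of 47 other translation genes, of which 16 were higher, 23 were lower, 3 rose and 5 fell, with a median of -0.07. Over protein-coding genes with at least 1000 counts, 38.4% were higher, 44.3% were lower, 8.65% rose and 9.95% fell. The list as a whole was thus near this background. PPP1R15A, the stress-induced subunit that directs a phosphatase to eIF2, fell from 1662 to 401 counts, with a log2 ratio of -1.81 (-1.97 to -1.66). Its constitutive counterpart PPP1R15B fell from 7603 to 3837 counts, at -0.75 (-0.81 to -0.69). Both phosphatase subunits were therefore below their vehicle values. Among the kinases, EIF2AK4 (GCN2, which senses uncharged tRNA) rose from 8029 to 10971 counts, at 0.69 (0.65 to 0.73), and EIF2AK3 (PERK, which senses unfolded proteins) fell from 2613 to 1450 counts, at -0.61 (-0.71 to -0.52). EIF2AK1 and EIF2AK2 were lower at -0.27 and -0.18. GCN1, which activates GCN2 on the ribosome, was higher at 0.52 (0.50 to 0.55), whereas IMPACT, which competes for GCN1, was lower at -0.28 (-0.37 to -0.20). The remaining genes of the list past 1.5-fold were DPH2, needed for the diphthamide of eEF2, which rose to 0.66, MKNK2, an eIF4E kinase, which fell by 0.69 on the log2 scale, EFL1, a GTPase that helps release eIF6, which fell by 0.84, and DHPS, the first enzyme of eIF5A hypusination. DHPS had 57 and 145 gene counts, a log2 ratio of 1.58, but 371 and 377 estimated transcript counts, fewer gene counts than transcript counts, so its ratio is uncertain. MKNK2 had 12171 and 7701 estimated transcript counts, a smaller fall than by gene counts. The transcript table held few reads of EIF2AK4 (95 and 116) and of EFL1 (3.3 and 8.3, the opposite direction), so it gives no check of these genes.

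**Figure D2:**
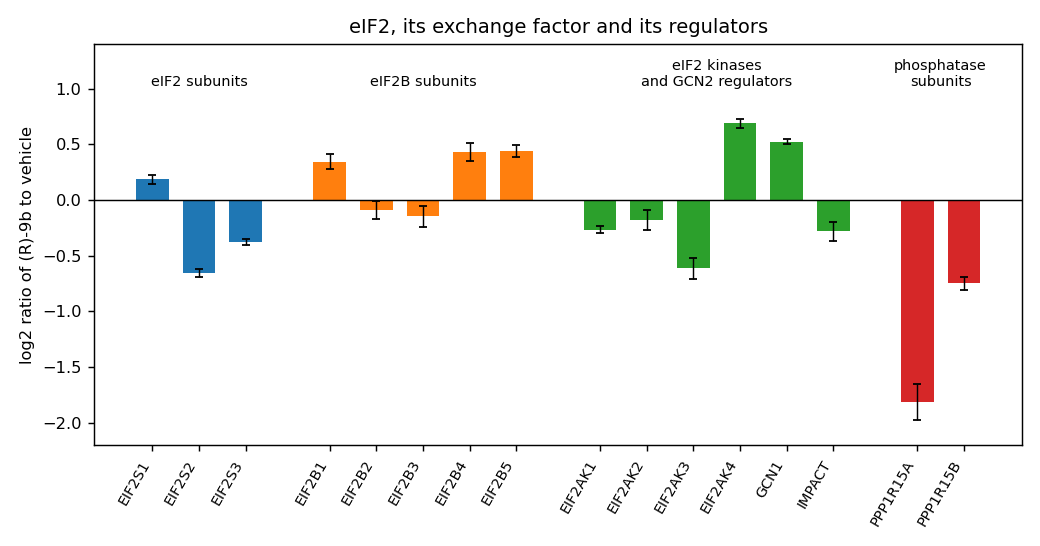
Log2 ratio of (R)-9b to vehicle (bars) with 95% counting intervals for the eIF2 subunits, the eIF2B subunits, the eIF2 kinases with GCN1 and IMPACT, and the phosphatase subunits. PPP1R15A has the lowest value, -1.81, and EIF2AK4 the highest, 0.69.

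eIF3, the largest initiation factor, bridges the small subunit and eIF4F. Of its 14 genes, 11 were lower and 2 were higher, and the median was -0.28. EIF3A, the large scaffold subunit and the most abundant by counts, had 36491 and 25573 counts, a log2 ratio of -0.28 (-0.30 to -0.25). EIF3D, which can itself bind the cap, had 25959 and 15729 counts, at -0.49 (-0.51 to -0.46), and EIF3F had 20810 and 13414 counts, at -0.40 (-0.43 to -0.36). EIF3B and EIF3I, which sit together in one module of the complex, were the 2 higher genes. EIF3B had 30411 and 29107 counts, at 0.17 (0.15 to 0.20), and EIF3I had 24659 and 21517 counts, at 0.04 (0.01 to 0.07), which turned to -0.019 (-0.045 to 0.007) when the libraries were scaled by their totals. EIF3G, another subunit of that module, was lower at -0.29 (-0.33 to -0.26). EIF3CL was the 1 gene of the complex that fell, from 1315 to 667 counts, at -0.74 (-0.88 to -0.61). It is a near-identical copy of EIF3C, which had 1859 and 1059 counts at -0.57 (-0.68 to -0.46), so the division of reads between the copies is uncertain.

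The eIF4F genes diverged. EIF4G1, the main scaffold, had 90863 counts in vehicle and 95674 in (R)-9b and was higher at 0.31 (0.30 to 0.33). EIF4G3, a paralog of the scaffold, fell from 8577 to 4710 counts, at -0.63 (-0.68 to -0.58). EIF4G2, a scaffold relative that lacks the eIF4E-binding part, had 72660 and 54856 counts, at -0.17 (-0.18 to -0.15). EIF4G1 thus made up 55.6% of the EIF4G1 and EIF4G2 counts in vehicle (55.3 to 55.8%) and 63.6% in (R)-9b (63.3 to 63.8%), and 91.4% and 95.3% of the EIF4G1 and EIF4G3 counts. In the transcript table, which holds few of the EIF4G2 reads, the first of these shares was 86.1% in vehicle and 89.3% in (R)-9b. EIF4E, the cap-binding protein, had 3168 and 3000 counts and was higher at 0.16 (0.09 to 0.23), as was its relative EIF4E2 at 0.28 (0.21 to 0.35). The helicase EIF4A2 and the helicase cofactors EIF4B and EIF4H were lower. EIF4A2 had 18632 and 10902 counts, at -0.54 (-0.57 to -0.50), EIF4B had 59160 and 34181 counts, at -0.55 (-0.57 to -0.53), and EIF4H had 31706 and 20939 counts, at -0.36 (-0.39 to -0.34). EIF4A3, a related helicase of the exon junction complex rather than of initiation, was higher at 0.14 (0.10 to 0.19).

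The repressors that bind eIF4E were split by paralog. EIF4EBP1 fell from 18919 to 8694 counts, with a log2 ratio of -0.88 (-0.92 to -0.85), and the transcript table also gave -0.88. EIF4EBP2 had 10281 and 8810 counts, and its interval spanned 0 (-0.03 to 0.06). EIF4EBP1 made up 64.8% of the counts of this pair in vehicle (64.2 to 65.3%) and 49.7% in (R)-9b (48.9 to 50.4%), so that the paralogs were about equally abundant by counts after treatment. EIF4EBP3 fell from 1077 to 449 counts, at -1.02 (-1.19 to -0.86), but 73.4% of its exon bases are shared on the same strand with the read-through gene ANKHD1-EIF4EBP3. The estimated transcript counts of EIF4EBP3 were 2512 in vehicle and 1012 in (R)-9b. EIF4ENIF1, which carries eIF4E into the nucleus, had 1390 and 1265 counts, with an interval that spanned 0 (-0.01 to 0.21).

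EIF5A, whose hypusine-bearing protein helps ribosomes through difficult sequences, had 27893 and 24118 counts and a log2 ratio of 0.03 (0.003 to 0.05), which turned to -0.03 when the libraries were scaled by their totals. EIF5AL1, a near-identical copy of EIF5A with which it may share reads, had 1217 and 1039 counts and an interval that spanned 0 (-0.11 to 0.13), and EIF5A2 had 494 and 480 counts and was higher at 0.20 (0.01 to 0.38). The eIF5A genes thus lay near 0. EIF6, which keeps the ribosomal subunits apart, had 6642 and 5713 counts, at 0.02 (-0.03 to 0.07). Of the 7 genes for enzymes that modify elongation factors, 2 were higher and 3 were lower. EEF2KMT, which methylates eEF2, had 1421 and 1535 counts and was higher at 0.35 (0.24 to 0.45), and EEF2K, the kinase that inhibits eEF2, had 3774 and 3095 counts, with an interval that spanned 0 (-0.12 to 0.02). EEF1AKNMT, which methylates eEF1A, had 4381 and 3833 counts and an interval that spanned 0 (-0.02 to 0.11). Another such enzyme, EEF1AKMT2, had 283 and 162 counts and was lower at -0.57 (-0.85 to -0.28), though its gene counts are uncertain. From its estimated transcript counts the log2 ratio was -0.22, with an interval that spanned 0 (-0.47 to 0.04). EEF1E1, a scaffold of the multi-tRNA synthetase complex rather than an elongation factor, had 404 and 259 counts and was lower at -0.40 (-0.63 to -0.17). EIF1AD was higher at 0.15 (0.04 to 0.26).

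For 6 members the gene counts held fewer reads than the transcript table. A typical member had 2.80 gene counts for each estimated transcript count, whereas EIF4A1, EEF1G, EIF4EBP3, EEF1D, EEF1AKMT2 and EEF1AKMT4 had fewer gene counts than estimated transcript counts in at least 1 library. EIF4A1, the main eIF4A helicase gene (chr17:7572706-7579005), had 55 and 214 gene counts, a log2 ratio of 2.20 (1.76 to 2.65). Its estimated transcript counts were 7303 and 6479, a log2 ratio of 0.08 (0.03 to 0.12), and 48.6% of its exon bases are shared on the same strand with other annotated genes, among them the read-through gene SENP3-EIF4A1. The rise of EIF4A1 in the gene counts was therefore not seen at that size in the transcript table. EEF1G, the γ subunit of the eEF1 exchange factor (chr11:62559601-62574086), had 0 gene counts in both libraries, where a count of 0 allows up to 0.0451 CPM (vehicle) or 0.0531 CPM (treated), but 65992 and 50220 estimated transcript counts, a log2 ratio of -0.15 (-0.16 to -0.13). In the annotation (GENCODE release 29, GRCh38) 99.9% of its exon bases are shared with AP002990.1. EEF1D had 7948 and 6366 gene counts, a log2 ratio of -0.08 (-0.13 to -0.03), whereas its estimated transcript counts gave -0.39 (-0.43 to -0.35). EEF1AKMT4, which methylates eEF1A, was the other gene that rose, from 528 to 737 counts, at 0.72 (0.56 to 0.88), and its estimated transcript counts gave 0.63 (0.46 to 0.79). Without the 5 tested genes of this kind, 0 members rose and 7 fell among 59, with 15 higher, 35 lower and a median of -0.20. The other 3 members under the minimum were EIF4E1B, with 0 and 2 counts, and the read-through genes EEF1E1-BLOC1S5 and EEF1AKMT4-ECE2, with 0 in both.

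**Figure D3:**
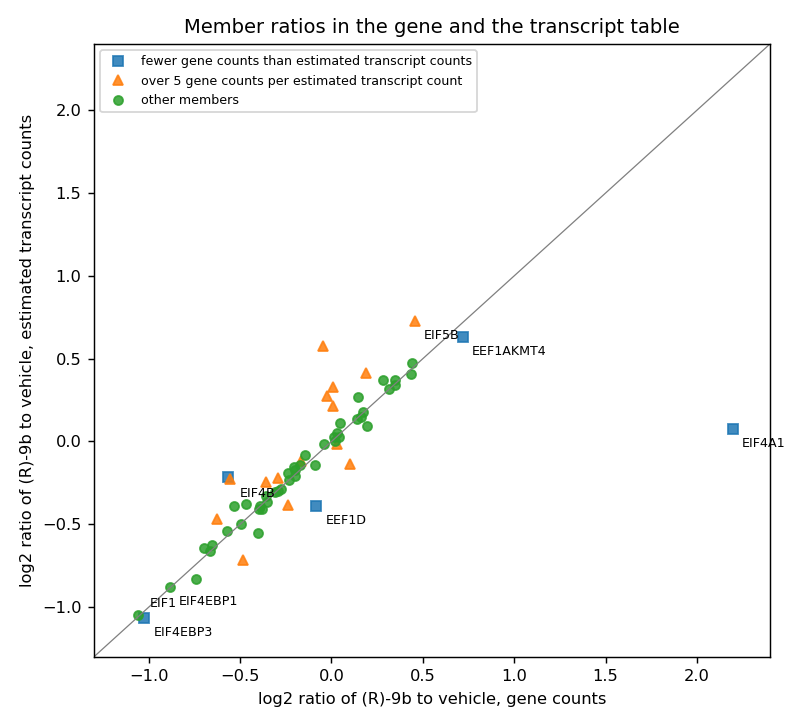
Log2 ratio of (R)-9b to vehicle from gene counts (x axis) against that from estimated transcript counts summed per gene (y axis), 1 point per member, with the line of equal values. EIF4A1 lies far to the right of the line, at 2.20 against 0.08, and 45 members lie within 0.1 of it.

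Over the 64 members, the transcript table gave the same sign for 60 and a log2 ratio within 0.1 for 45. In 15 members it held few of the reads, with more than 5 gene counts for each estimated transcript count, EIF5B and EIF3D among them. In that table some of these moved away from 0, EIF5B to 0.73 and EIF3D to -0.71. Others moved toward it, EIF4B from -0.55 to -0.23 and EIF4G3 from -0.63 to -0.47, which is short of 1.5-fold. EIF4ENIF1 was at -0.14 there (-0.69 to 0.40), against 0.10 by gene counts, and both intervals spanned 0.

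Transcript shares within members were described from the same estimates, with exact binomial intervals. These intervals treat the estimated counts as observed reads. They leave out the uncertainty of dividing reads among overlapping transcripts and are too narrow for that reason. Of 139 transcripts with at least 10% of their gene, 26 moved by 10 percentage points or more, in 14 of 64 members. Over protein-coding genes under the same rule, 32.8% had such a transcript, so the members' count was not above the background. EIF4A2 changed most among members with well-covered transcripts, meaning at most 5 gene counts for each estimated transcript count. Its transcripts annotated as retaining an intron made up 12.7% of the gene in vehicle (11.8 to 13.7%) and 42% in (R)-9b (40.3 to 43.8%), whereas those annotated for nonsense-mediated decay made up 59.6% (58.2 to 60.9%) and 32.6% (30.9 to 34.3%). The protein-coding class was close to level, at 27.7% (26.5 to 29%) and 25.4% (23.8 to 26.9%). Most of the difference came from EIF4A2-219, which retains an intron and went from 3.91% to 26.8%, and from 2 decay transcripts, which went from 16.8% to 2.88% and from 18.8% to 8.28%.

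Transcripts that retain an intron also took a larger share of EIF2B5, 11.4% in vehicle (9.95 to 13.0%) and 23.1% in (R)-9b (21.3 to 25%), and of EIF2B4, 3.92% (2.77 to 5.30%) and 9.16% (7.51 to 11.0%). Both genes were higher by gene counts. Among 44 members with well-covered transcripts, 30 had such transcripts, and their share was larger in 8 and smaller in 2 with intervals that did not overlap. Under the same rule the share was larger in 27.0% and smaller in 5.04% of 5142 protein-coding genes. Taken over the 44 or over the 30 members, the 8 with a larger share were not above that background. Summed over the 44 members, this class made up 6.71% of the estimated counts in vehicle and 7.01% in (R)-9b, and over all genes it made up 4.13% and 4.96%. In EIF4G3, both leading transcripts are protein-coding. EIF4G3-205 went from 46.0% (43.5 to 48.5%) to 28.9% (26.0 to 31.8%), and EIF4G3-214 from 20.8% (18.8 to 22.9%) to 36.7% (33.7 to 39.9%). This gene is not among the well-covered members, with 5.45 gene counts for each estimated transcript count in vehicle, so these shares rest on few of its reads. In EIF2B3, the protein-coding transcript EIF2B3-201 went from 62.0% (58.2 to 65.6%) to 83.1% (79.7 to 86.1%).

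**Figure D4:**
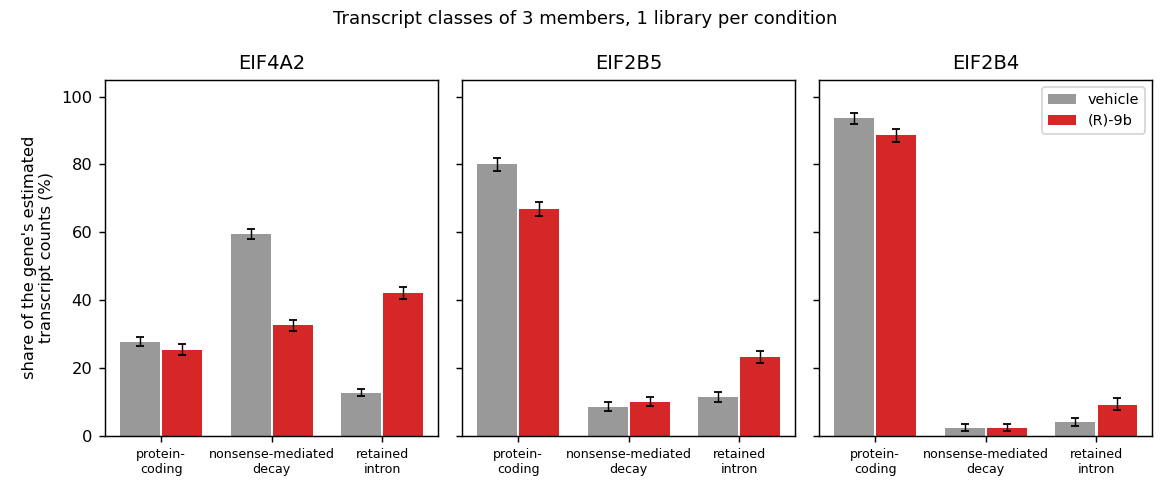
Share of each gene's estimated transcript counts by annotated transcript class, in percent, for EIF4A2, EIF2B5 and EIF2B4 in vehicle (grey) and (R)-9b (red), with exact 95% binomial intervals. The retained-intron share of EIF4A2 is 12.7% in vehicle and 42% in (R)-9b.

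The sequences at the transcript start were then set beside the ratios, a comparison made after the ratios were known. RefSeq promoter windows matched 54 of the 68 members, and 12 of these (22.2%) began with a C followed by pyrimidines for at least 5 bases in all, beside 4.07% of 35116 promoters. The members not matched were EEF1A2, EEF1AKMT1, EEF1AKMT3, EEF1AKNMT, EEF1D, EEF2KMT, EIF2S2, EIF3A, EIF3CL, EIF3E, EIF3G, EIF3H, EIF3L and EIF4EBP1. Except for EEF2KMT, which was higher, and EEF1AKNMT, whose interval spanned 0, all of these were lower. Their starts could not be classified, so the comparison by start leaves out mostly lower genes. The 12 with a tract were EEF1A1, EEF2, EIF2A, EIF2D, EIF2S3, EIF2S3B, EIF3D, EIF3F, EIF3K, EIF3M, EIF4A2 and EIF4B. All 12 were lower in (R)-9b, with a median of -0.39 and a range from -0.70 for EIF2A to -0.20 for EIF2D. EIF2S3 and EIF2S3B are near-identical copies that may share reads, so they are not separate observations. Among 34 matched members without the tract and with certain counts, the median was 0.02 and 12 were lower. EIF1 and EIF5, shown above without a tract, were among the lowest of all members, so members without it were found at both ends of the range.

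The same tract in other genes went with smaller values. Among cytosolic ribosomal protein genes, the best known TOP mRNAs, the median was -0.12 over 44 genes with the tract and -0.11 over 20 without it. The annotated start can thus miss the motif of TOP mRNAs, so these 20 are not a group without TOP mRNAs. For the same reason, members scored without the tract are not known to lack the motif. Among other protein-coding genes it was -0.14 over 545 with the tract, of which 50.6% were lower, and -0.002 over 11063 without it, of which 36.9% were lower. For those with at least 1000 counts, it was -0.15 over 402 with the tract, of which 57.0% were lower. Without the tract it was -0.02 over 7363, of which 43.5% were lower. When a tract was accepted from any C within 5 bases on either side of the start, which 21.1% of promoters hold, 21 members with it had a median of -0.36 and 25 without it had 0.03. Under this wider rule 16 of the 21 were lower, with values from -1.06 to 0.28, and EIF1 counted as having a tract.

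**Figure D5:**
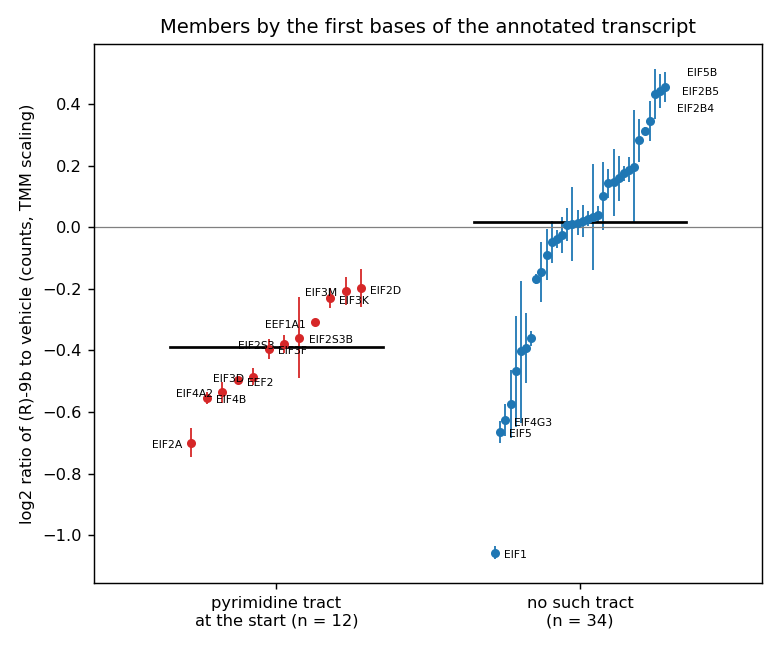
Log2 ratio of (R)-9b to vehicle for members with a pyrimidine tract at the annotated start (n = 12) and without one (n = 34), with 95% counting intervals and the group median as a line. All 12 genes with the tract lie below 0, and the others run from EIF1 at -1.06 to EIF5B at 0.45.

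Both strands of the promoter windows, 250 bases before to 50 bases after the start, were also searched for CACGTG, the E-box bound by MYC and related factors, and for TGATGNAA, the core of the C/EBP-ATF composite element. CACGTG was found in 14 of 54 member promoters (25.9%), EIF4G1, EIF4E, EIF4B and EIF3F among them, beside 7.26% of all promoters. The 14 include EEF1AKMT4 and its read-through gene EEF1AKMT4-ECE2, which share the same window. Leaving out the genes of uncertain counting, the 11 tested members with it had a median of -0.15, and the 35 without it had -0.04. TGATGNAA was found in 0 of 54 member promoters and in 3.62% of all promoters. For both motifs the background was all promoters, not those of expressed protein-coding genes. Neither share is therefore known to be particular to translation factors.

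By median log2 ratio, though not by the share of genes that were lower, the translation factors lay between other groups of the same machinery. The 80 cytosolic ribosomal protein genes had a median of -0.13, with 12 higher and 62 lower. The 20 cytosolic aminoacyl-tRNA synthetase genes, which charge the tRNAs that eEF1A carries, had a median of -0.52, with 4 higher, 15 lower and 8 that fell. These medians describe the same pair of libraries, and the differences between groups were not tested.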

How the data were processed

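Poly(A) RNA from C4-2B cells, 1 library per condition, was sequenced as paired-end reads. Alignment by the authors used STAR and GRCh38, for which the study gives Ensembl release 101, whereas the submitters' processing notes list STAR 2.5.1a, hg38, featureCounts 1.4.6-p5 and Salmon 0.8.2. The authors deposited gene counts of uniquely aligned, unambiguous reads without normalization, the same values as CPM, moderated log2 CPM whose prior is not given in the sources used here, and estimated counts per transcript. Transcript CPM and transcript log2 tables were not used here. Low counts were mostly even (72.2% and 70.3% of counts from 1 to 20), so halved counts were tried as an alternative. If both mates of each read pair were counted, the intervals from full counts are too narrow. With halved counts some members called higher or lower had intervals that spanned 0. Among these were EEF1B2 (-0.080 to 0.002), EIF2B2 (-0.21 to 0.03) and EIF1AD (-0.008 to 0.30). A gene whose reads overlap another gene can lose them under this counting.

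Repeated gene lines were dropped. Genes that reached 10 counts in the pair of libraries were kept and scaled with TMM in edgeR 4.0.16 (R 4.3.3), and exact (Clopper-Pearson) 95% intervals of each ratio, conditional on the sum of the counts, were computed with scipy 1.17.1. These cover counting error only. edgeR and DESeq2 1.42.0 served for scaling alone. A gene was called past 1.5-fold where its whole interval also lay on that side of 0. The intervals were tested on simulated Poisson counts, which lack the excess of even values. Estimated transcript counts were rounded to whole numbers for intervals. Exon overlaps and lengths came from GENCODE release 29, and transcript starts from RefSeq (GRCh38.p14).

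Members, complexes and lists were chosen with earlier results of these data known. Named members were those past 1.5-fold, the 8 largest in each direction by the interval end nearest 0, the highest, lowest and most abundant of each complex, and those under the minimum. Others were named to fill out a complex, a paralog pair or the start tract, after their values were seen. Of the pathway list, genes past 1.5-fold and the eIF2 kinases and phosphatase subunits were named by rule, and GCN1 and IMPACT after their values were seen.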

Additional observations from a re-analysis of the deposited data

How the results depend on the processing

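No paired analysis was possible because each condition has 1 library, and for the same reason no replicate could be left out. Adding a coefficient of variation of 0.1 left 5 members higher and 15 lower. Past 1.5-fold, 1 member rose when pseudogene counts were added and 0 without the genes of uncertain counting, an exclusion chosen after seeing the data. Past a log2 ratio of 0.32 in either direction 7 rose and 22 fell, and at 2-fold 1 rose and 2 fell. Total-count scaling and both deposited gene tables on the CPM scale gave a members' median of -0.24 and medians of -0.20 for eEF1, -0.56 for eEF2, -0.34 for eIF3, -0.49 for the eIF4E-binding repressors, -0.040 for eIF6 and 0.082 for EIF4A3. They turned eIF5A and EIF5A itself to -0.032, and total-count scaling turned EIF3I to -0.019. Upper-quartile scaling gave -0.11 for eEF1, -0.46 for eEF2 and -0.25 for eIF3, and DESeq2 size factors gave -0.52 for eEF2. The members' summed log2 ratio was -0.39 with total counts or deposited CPM, -0.35 with DESeq2 size factors, -0.29 with the upper quartile and -0.31 with estimated transcript counts. That table adds EEF1G, which has no gene counts. Estimated transcript counts also gave -0.21 for eEF1 with EEF1G and -0.26 without it, -0.51 for the eIF4E-binding repressors, 0.11 for the modifiers of elongation factors and -0.013 for EIF5A. Without the genes of uncertain counting the median was -0.20 for eEF1, -0.17 for eIF4F and 0.015 for the repressors, a reversal left by removing EIF4EBP3 from 4 genes. A minimum of 1 count gave 0.033 for eIF4F. The cause of the other shifts was not tested. Over 34 single members, 438 alternatives were computed, of which 400 were labelled the same. Of the rest, 28 lost the call, 4 gained it, 2 moved and 4 reversed, the reversals all in EIF5A. The label was fixed in advance for other minimum counts and for the exclusion of uncertain genes, which leave a member's values unchanged. The deposited CPM and moderated values have no intervals, so called members were compared there by sign alone, and deposited CPM repeats total-count scaling. The 400 is therefore not a measure of robustness. No replicate measures the spread between cultures, and members with under 1000 counts have intervals wide enough to hide differences of the size seen in most complexes.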
